A study of Mus musculus with 5 samples.

Results

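Lymphocyte effector cytokines were examined in single-cell RNA libraries of mouse intestine as 9 genes, Il22, Il17a, Il17f, Il13, Il5, Il4, Ifng, Il10 and Csf2, chosen by symbol from the 32285 genes of the deposited tables. All 9 were present, each once. The libraries came from duodenum, jejunum, ileum, colon and rectum, with 1 library per segment, from cell suspensions sorted as negative for propidium iodide, which stains dead cells. The labels name epithelial, mesenchymal and immune cells in every library and give no strain, age, treatment or number of animals. With 1 library per segment there is no replicate error. Values are therefore given with exact 95% intervals that cover counting error alone, and no p-value was computed. A level is given in CPM, the unique molecular identifiers (UMIs, 1 per captured molecule) of a gene per 1000000 UMIs of the cells summed. A share is the percentage of cells with at least 1 UMI.

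Effector cytokines are the secreted proteins through which lymphocytes instruct surrounding tissue. T cells and innate lymphoid cells, which lack antigen receptors, make the same sets. Type 3 cells make interleukin-22 and interleukin-17 and act on epithelial defence and neutrophil recruitment; type 2 cells make interleukin-4, interleukin-5 and interleukin-13 and act on mucus, eosinophils and helminth expulsion; and type 1 cells make interferon-gamma, which activates macrophages. Innate lymphoid cells are grouped in the same way. Group 3 cells (ILC3) make type 3 cytokines, group 2 cells (ILC2) depend on Gata3, and natural killer cells and group 1 cells (ILC1) depend on Tbx21. Interleukin-10, encoded by Il10, restrains inflammation, and Csf2 encodes GM-CSF, a growth factor for macrophages and dendritic cells.

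Several of the 9 genes are neighbours. Positions follow RefSeq on GRCm38.p6. Il4 (chr11:53612460-53618665), Il13 (chr11:53631323-53634702), Il5 (chr11:53720794-53725103) and Csf2 (chr11:54247270-54249899) lie on chromosome 11, with 12.7 kb between Il4 and Il13 and 86.1 kb between Il13 and Il5. Il17a (chr1:20730905-20734496) and Il17f (chr1:20777146-20785274) lie 42.6 kb apart on chromosome 1, which also holds Il10 (chr1:131019845-131024970). Il22 (chr10:118204584-118210047) and Ifng (chr10:118441046-118445894) lie on chromosome 10. Il22 has a near-identical copy, Iltifb (chr10:118289629-118295038), so reads can be divided between them and Il22 values carry that uncertainty. Iltifb had 6 UMIs in 4 cells, and Il22 had 411 UMIs in 26 cells.

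The 250 bases before the annotated start of Il17a, Il13 and Il5 are shown because UMIs of these 3 genes were found together in single rectal cells, as described below. Sequences are from RefSeq (GRCm38.p6), 5′ to 3′ in the direction of each gene. Capitals mark matches, on either strand, to AGGTCA, a core bound by nuclear receptors, or to GATA preceded by A or T and followed by A or G, the core bound by GATA factors. The Il17a window (chr1:20730655-20730904, plus strand) held 1 AGGTCA match, beginning 120 bases before the start, and 0 GATA matches. The Il13 window (chr11:53634703-53634952, minus strand) and the Il5 window (chr11:53720544-53720793, plus strand) each held 1 GATA match, beginning 81 and 72 bases before the start, and 0 AGGTCA matches. A GATA match was not particular to these type 2 genes. The windows of Il22, Ifng and Csf2 and an Il4 window also held 1 each, with 0 in the other Il4 window. The Il17f window held 1 AGGTCA match. Of 32817 windows of this length before annotated starts, 14% held AGGTCA and 26.6% held a GATA core, so single matches are common and a match is not a binding site.
Il17a: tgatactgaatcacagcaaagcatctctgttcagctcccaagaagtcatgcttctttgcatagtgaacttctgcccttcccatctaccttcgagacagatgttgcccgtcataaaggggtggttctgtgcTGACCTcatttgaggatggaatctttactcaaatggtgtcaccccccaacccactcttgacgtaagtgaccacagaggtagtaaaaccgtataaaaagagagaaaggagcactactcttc
Il13: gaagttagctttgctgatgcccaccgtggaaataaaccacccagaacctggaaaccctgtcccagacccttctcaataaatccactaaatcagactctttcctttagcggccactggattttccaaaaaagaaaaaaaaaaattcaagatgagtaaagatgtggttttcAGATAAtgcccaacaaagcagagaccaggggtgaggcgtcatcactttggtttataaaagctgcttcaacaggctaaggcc
Il5: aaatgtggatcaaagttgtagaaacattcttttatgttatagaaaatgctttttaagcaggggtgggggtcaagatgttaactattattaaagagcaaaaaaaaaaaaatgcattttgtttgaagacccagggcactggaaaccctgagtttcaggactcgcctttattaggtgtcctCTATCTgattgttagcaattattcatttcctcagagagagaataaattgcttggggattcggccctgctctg

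After filtering, 11922 cells were kept, between 1829 in jejunum and 3196 in duodenum, with median depths of 5059 to 9767 UMIs per cell. Clusters were named from marker genes, with the 9 cytokines left out of clustering and naming. They gave 331 innate lymphoid-like cells (54 in duodenum, 37 in jejunum, 54 in ileum, 64 in colon and 122 in rectum), 707 T-like cells (325, 104, 115, 85 and 78), 503 macrophage-like cells and 439 dendritic-like cells. The classes held the markers they were named from. Il7r had a UMI in 83.4% and Rora in 81.0% of innate lymphoid-like cells, against 0.237% and 0.342% of B-like cells. Cd3e had one in 91.7% of T-like cells, C1qa in 98.6% of macrophage-like cells and Flt3 in 72.2% of dendritic-like cells. Median depth was 4355 UMIs in innate lymphoid-like cells and 4272 in T-like cells. The 3803 B-like cells, with a median of 3319 UMIs, served as the background for free RNA. Libraries shared 30 of 16505 barcode sequences, 15 of them among the cells kept.

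Cytokine transcripts were more often found in innate lymphoid-like cells than in T-like cells in all 5 libraries. At least 1 of the 9 genes was detected in 151 of 331 innate lymphoid-like cells (45.6%, 40.2 to 51.2) and in 124 of 707 T-like cells (17.5%, 14.8 to 20.5). By segment, the innate lymphoid-like shares were 40.7% in duodenum, 32.4% in jejunum, 42.6% in ileum, 37.5% in colon and 57.4% in rectum. The T-like shares were 15.1%, 10.6%, 20%, 20% and 30.8% in the same order. In jejunum and colon the intervals of the classes overlapped. The rectum was highest in both classes, but its interval in innate lymphoid-like cells (48.1 to 66.3%) overlapped that of every other segment, and its interval in T-like cells (20.8 to 42.2%) overlapped those of ileum and colon. In B-like cells the share was 0.789%, with 0.156% in duodenum and 2.33% in rectum as the lowest and highest libraries. After each cell was thinned to 1000 UMIs, 23.2% of innate lymphoid-like cells and 7.26% of T-like cells kept a cytokine UMI, against 0.0538% of B-like cells. Thinning left out 8 innate lymphoid-like, 18 T-like and 85 B-like cells. In the thinned cells the rectal innate lymphoid-like share was 26.7%, close to 25.9% in ileum and 25% in colon. Rectal innate lymphoid-like cells were also the deepest, with a median of 5263 UMIs against 3353 to 4561 in the other libraries.

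In macrophage-like cells 99 of 503 (19.7%) had a UMI of any of the 9, and 96 of them had Il10. In dendritic-like cells 13 of 439 (2.96%) had one. The interval of a share lay above that of B-like cells for 8 of 9 genes in innate lymphoid-like cells, all but Il10, for 4 in T-like cells (Il4, Ifng, Il10 and Csf2), for Il10 in macrophage-like cells and for Il4 in dendritic-like cells (4 cells, 0.911%). For Il10 in T-like cells the lower bound, 0.779%, was the same to 3 digits as the upper bound in B-like cells. Dendritic-like cells were deeper than B-like cells, with a median of 16308 UMIs, and per UMI sequenced their Il4 intervals overlapped (0.201 to 1.44 CPM in dendritic-like and 0.0937 to 0.674 CPM in B-like cells), so Il4 in dendritic-like cells was not told apart from background.

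**Figure D1:**
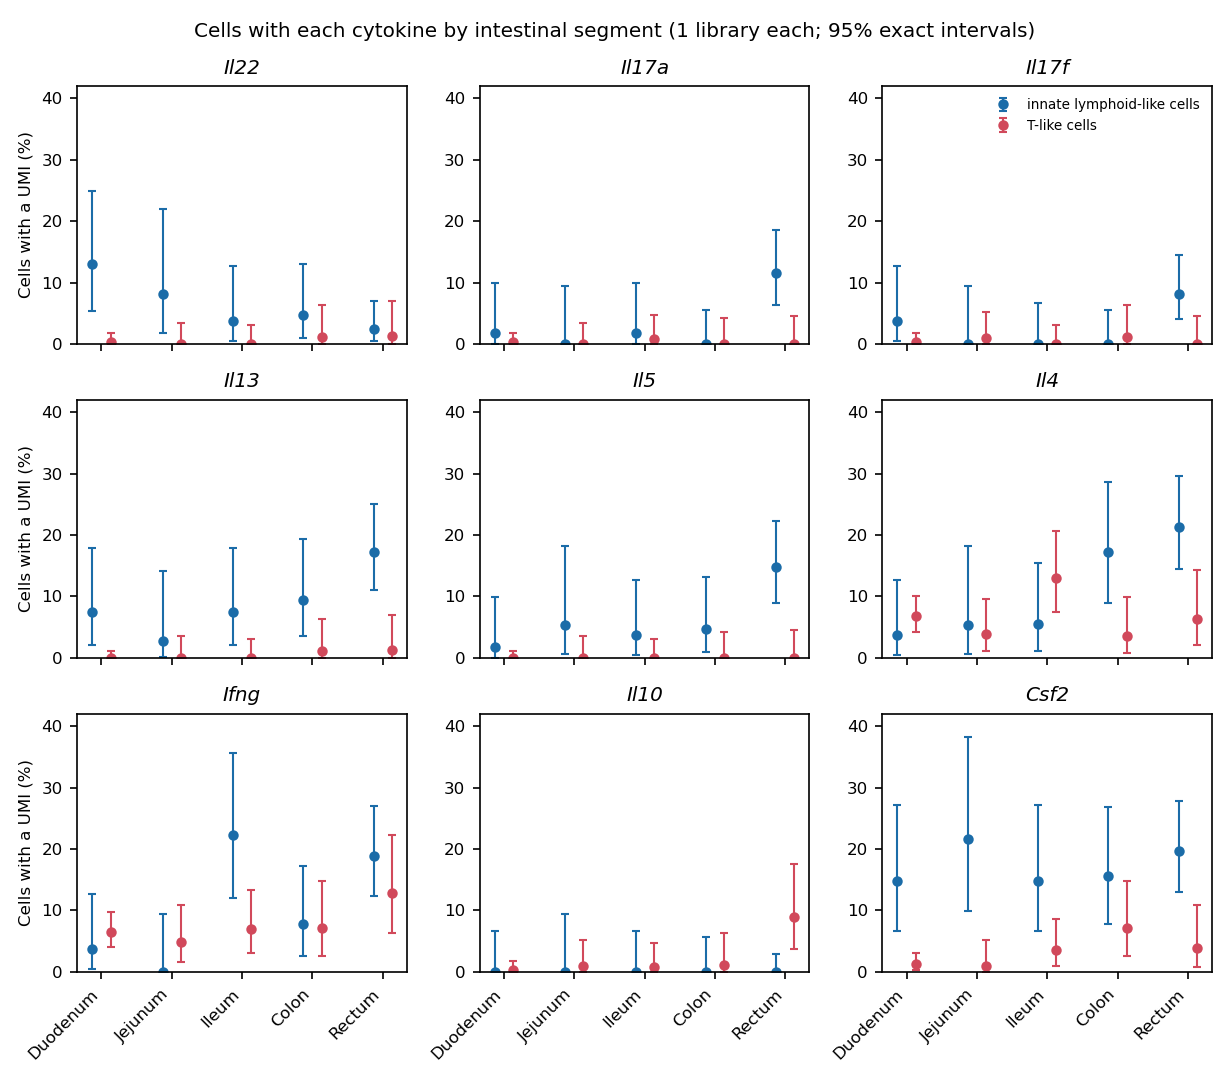
Percentage of innate lymphoid-like cells (blue, left) and T-like cells (red, right) with a UMI of each of the 9 cytokines, by segment, 1 library each, with exact 95% intervals. Csf2, Il13 and Il5 are higher in innate lymphoid-like cells in all 5 libraries, Il17a reaches 11.5% in rectal innate lymphoid-like cells, and Il10 is at 0% in innate lymphoid-like cells of every library.

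Of the 9 genes, 5 were at least 4-fold higher in innate lymphoid-like than in T-like cells in mean CPM over the 5 libraries, with at least 50 UMIs in both classes together. The same rule called 1.23% of 7878 genes higher and 1.62% lower. Each of the 5 passed the UMI minimum through innate lymphoid-like cells, as T-like cells held 40 UMIs or fewer of it. Being high in that class thus helped a gene to be tested, and the count of 5 is a description. The mean level of Il22 was 275 CPM in innate lymphoid-like cells and 15.1 CPM in T-like cells, a ratio of 18.2. For Il17a the means were 62.4 and 0.986 CPM (63.2-fold), for Il17f 22.5 and 1.18 CPM (19.0-fold), for Il13 95.2 and 2.32 CPM (41.0-fold) and for Csf2 380 and 20.5 CPM (18.5-fold). Il4, at 60.7 CPM in innate lymphoid-like cells and 19.6 CPM in T-like cells, and Ifng, at 38.6 and 28.1 CPM, did not pass, with ratios of 3.10 and 1.38. Il5 and Il10 had fewer than 50 UMIs. The T-like means rest on few UMIs, 6 of Il17a, 3 of Il17f and 4 of Il13, and T-like libraries at 0 entered them as 0. With those libraries set to 3 counts each, the ratios were 15.9 for Il22, 10.7 for Il17a, 5.85 for Il17f and 19.4 for Il13, and the same 5 genes passed, against 1.21% of all genes. For Il17f the UMIs of the 5 libraries pooled gave a ratio of 45.9, with an exact counting interval of 15 to 228. That interval takes each UMI as independent and is too narrow, as 3 cells held 39 of the 62 Il17f UMIs of innate lymphoid-like cells. Without the rectum library Il17a (ratio 1.85), Il17f (4.17) and Il13 (70.0) all had under 50 UMIs. Il22 (16.3-fold) and Csf2 (17.3-fold) were the members that still passed without it. Without the cell with most UMIs of each cytokine in each class, the ratios were 190 for Il22, 135 for Il17a, 136 for Il13 and 37.4 for Csf2, and Il17f, at 16.4, had under 50 UMIs. UMIs sat in few cells: 1 duodenal cell held 120 of the 355 Il22 UMIs of innate lymphoid-like cells, and 1 colonic cell held 22 of the 25 in T-like cells.

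The innate lymphoid-like cells divided into an ILC2-like part of 77 cells, an ILC3-like part of 89 cells and 2 parts like natural killer cells and ILC1 of 107 and 58 cells. The 9 genes had not been used to make these parts, and the parts differed in which of them they held. Among innate lymphoid-like cells, Il22 was found only in the ILC3-like part (18 of 89 cells, 20.2%) and Il5 only in the ILC2-like part (26 of 77 cells, 33.8%). Il13 and Il4 were each found in 1 cell, or none, of any other innate part, and Ifng was found mostly in the natural killer and ILC1-like parts. The T-like cells divided into 8 parts, among them a regulatory T-like part of 75 cells, a part of 58 cells led by Cd163l1, Blk and Trdv4, and a part of 164 cells led by Gm15340, Cd6 and Lyst. The Cd163l1-led part matched the markers of type 17 T cells, and it had Trdc, a gamma-delta receptor gene, in 70.7% of cells, Trac in 31.0% and Cd4 in 0%. It is given here by its leading gene, as is the Gm15340-led part, which matched no list. The share of cells with a UMI of Cd3d, Cd3e or Cd3g, subunits of the T cell receptor complex, was 35.1% in the ILC2-like, 14.6% in the ILC3-like, and 28.0% and 10.3% in the natural killer and ILC1-like parts, and how many T cells the innate class holds was not determined.

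**Figure D2:**
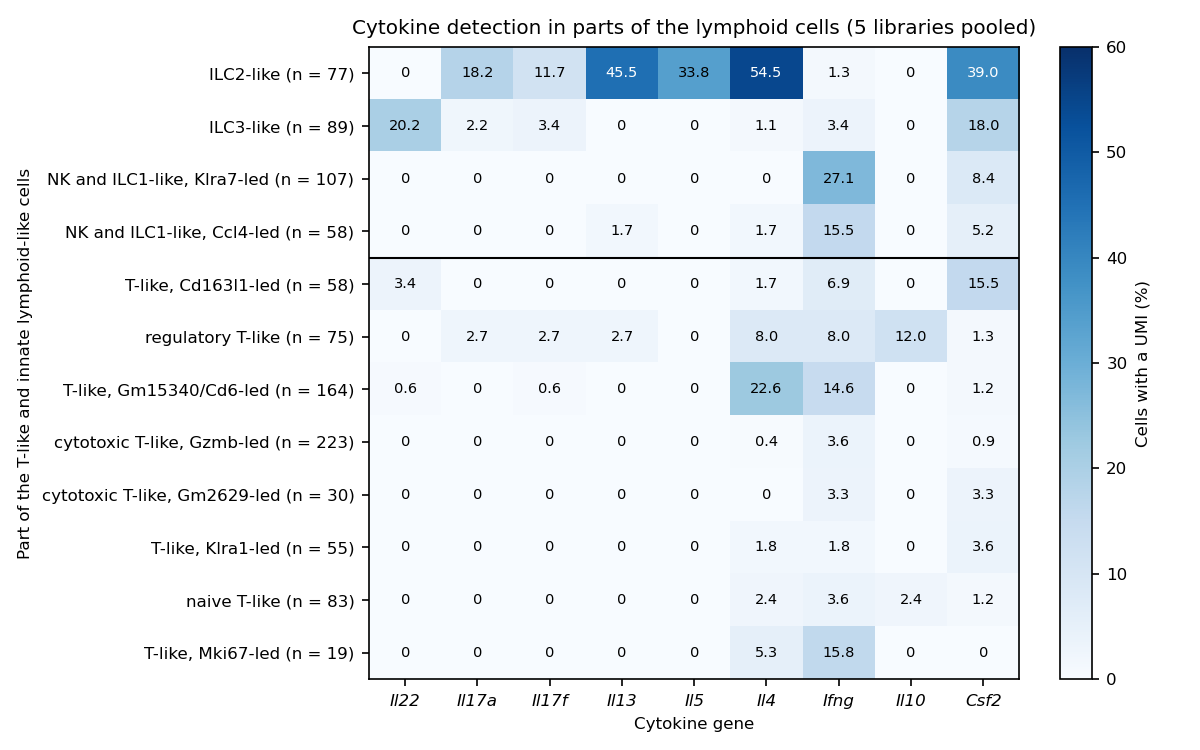
Percentage of cells with a UMI of each cytokine (columns) in the 4 named innate lymphoid-like parts (above the line) and the 8 T-like parts (below it), with the 5 libraries pooled and the number of cells in brackets. Darker cells of the map are higher: Il22 is at 20.2% in ILC3-like cells, Il13, Il4 and Csf2 are at 45.5%, 54.5% and 39.0% in ILC2-like cells, and Ifng is at 27.1% in the Klra7-led part.

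Of the type 3 genes, Il22, whose protein induces epithelial antimicrobial genes through Il22ra1, was found in innate lymphoid-like cells of every segment. Its level in these cells was 844 CPM in duodenum (7 of 54 cells), 278 CPM in jejunum (3 of 37), 33.5 CPM in ileum (2 of 54), 26.2 CPM in colon (3 of 64) and 192 CPM in rectum (3 of 122). The shares, between 2.46% in rectum and 13% in duodenum, had overlapping intervals in every pair of segments, whereas the levels followed single cells with 120 UMIs in duodenum and 61 in rectum. Within ILC3-like cells the share was 29.2% in duodenum, 13% in jejunum, 12.5% in ileum, 23.1% in colon and 23.1% in rectum. ILC3-like cells themselves made up 44.4%, 62.2%, 29.6%, 20.3% and 10.7% of innate lymphoid-like cells in the same order. Among the 18 ILC3-like cells with Il22, 13 had a UMI of Ncr1 (72.2%), the gene of the receptor NKp46, and 14 had one of Kit (77.8%), the receptor of stem cell factor. Among the 71 without Il22, 31 had Ncr1 (43.7%) and 40 had Kit (56.3%). No intervals were computed for these shares of few cells, so a difference beyond counting error is not shown. Kit and Ncr1 were also markers used to name the innate class. Csf2 was found in 3 of the 18 cells with Il22 (16.7%) and in 18.3% of those without.

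Il17a and Il17f encode cytokines that recruit neutrophils by acting on epithelium and stroma. Nearly all of their UMIs came from the rectum. In innate lymphoid-like cells Il17a had 1 UMI in duodenum, 0 in jejunum, 1 in ileum, 0 in colon and 197 in rectum, where 14 of 122 cells held it (11.5%, 6.42 to 18.5). The rectal level was 303 CPM, against 4.94 CPM or less in each of the other 4 libraries. Il17f had 57 UMIs in 10 rectal cells and 5 UMIs in 2 duodenal cells, and 0 UMIs in the other 3 libraries. The count of 0 in colon allows a share of up to 4.69%. T-like cells held 6 UMIs of Il17a in 2 cells and 3 UMIs of Il17f in 3 cells, and the 58 cells of the Cd163l1-led T-like part held 0 of either. That part held 23 UMIs of Il22 in 2 cells, 22 of them in 1 cell. Rectal B-like cells had Il17a in 0 of 558.

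Of the 14 rectal cells with Il17a, 13 lay in the ILC2-like part, not in the ILC3-like part, which held 1. Il17a was found in 13 of 41 rectal ILC2-like cells (31.7%, 18.1 to 48.1), in 0 of 16 colonic ILC2-like cells, which allows a share of up to 18.8%, and in 1 of 20 from the 3 small-intestinal libraries. The 41 rectal cells were compared by detection of Il17a. Il13 was found in 12 of the 13 cells with Il17a (92.3%, 64.0 to 99.8) and in 9 of the 28 without it (32.1%, 15.9 to 52.4), and these intervals did not overlap. Il17f was found in 7 of 13 (53.8%, 25.1 to 80.8) and 2 of 28 cells (7.14%, 0.877 to 23.5), again without overlap. The intervals of the other 3 genes overlapped. Il5 was found in 9 of 13 (69.2%, 38.6 to 90.9) and 9 of 28 (32.1%, 15.9 to 52.4), Csf2 in 1 of 13 (7.69%, 0.195 to 36.0) and 14 of 28 (50%, 30.6 to 69.4), and Il4 in 7 of 13 (53.8%) and 19 of 28 cells (67.9%).

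The rectal cells with and without Il17a, whose window is printed above, were compared for ILC2 markers, which had also served to name the part. Gata3 was found in 12 of the 13 with Il17a and 26 of the 28 without, Il17rb, a receptor chain for interleukin-25, in 10 of 13 and 13 of 28, and Il1rl1, the receptor for interleukin-33, in 4 of 13 and 13 of 28. Il23r, the receptor for the type 3 inducer interleukin-23, was at 0 in all 41 cells. A UMI of Cd3d, Cd3e or Cd3g was found in 4 of 13 and 12 of 28. Median depth was 5238 UMIs in cells with Il17a and 5690 in those without. All 13 cells came from 1 library and may come from 1 animal, and cells are not replicates of the rectum. Where each cell was classed by its own marker UMIs, which asks an innate cell for a UMI of Il7r and none of the Cd3 genes, 4 of 191 innate lymphoid-like cells had Il17a (2.09%).

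**Figure D3:**
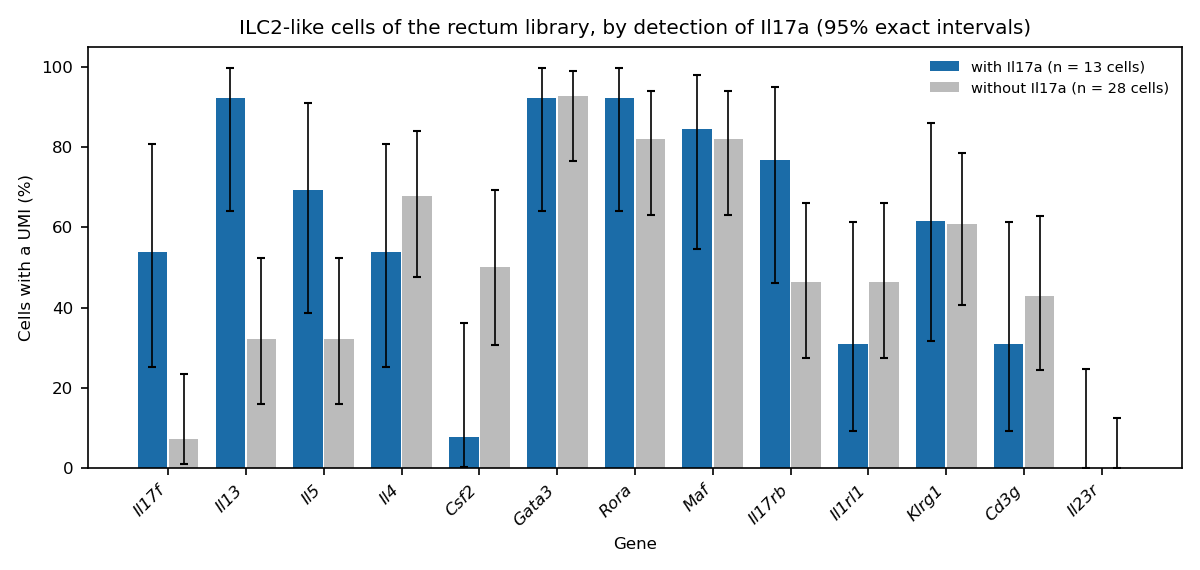
Percentage of ILC2-like cells of the rectum library with a UMI of each gene, for the 13 cells with Il17a (blue, left) and the 28 cells without it (grey, right), with exact 95% intervals. The intervals of Il13 and Il17f lie higher in the cells with Il17a without overlap, those of Il5 and Csf2 overlap, Gata3 is above 90% in both, and Il23r is at 0%.

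Among the type 2 genes, Il13 encodes the cytokine that drives goblet cell mucus, Il5 the growth factor of eosinophils and Il4 the cytokine of T helper 2 polarisation. Il13 was found in 7.41%, 2.70%, 7.41%, 9.38% and 17.2% of innate lymphoid-like cells from duodenum to rectum, at 114, 18.5, 20.9, 74.1 and 249 CPM. In T-like cells it had 4 UMIs in 2 cells, 1 in colon and 1 in rectum. Il5 was found in 1 duodenal, 2 jejunal, 2 ileal, 3 colonic and 18 rectal innate lymphoid-like cells, and in 0 of 707 T-like cells, which allows a share of up to 0.424%. Its mean level, 19.9 CPM, was at least 3.20-fold higher than in T-like cells, taking 3 counts per library there, a bound to be set beside the ratios made with 3 counts above and not beside the others. The ILC2-like share of innate lymphoid-like cells was 14.8%, 16.2%, 11.1%, 25% and 33.6% in the same order, and its part in these numbers was not tested. Within ILC2-like cells Il13 was found in 3 of 8, 1 of 6, 4 of 6, 6 of 16 and 21 of 41 cells in that order, and all of these intervals overlapped. Il5 was found in 19 of the 35 ILC2-like cells with Il13 (54.3%) and in 16.7% of those without it. The class boundary bears on these counts: where each cell was classed by its own marker UMIs, 8 of 657 T-like cells had Il5 and 10 had Il13.

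Il4 was the type 2 gene shared by innate lymphoid-like and T-like cells. It was found in 44 innate lymphoid-like cells, 42 of them ILC2-like (54.5% of that part), and in 49 T-like cells, most of them in the Gm15340-led part. No T-like cell had more than 3 Il4 UMIs, whereas an innate lymphoid-like cell had 29. In innate lymphoid-like cells Il4 was at 87.2 CPM in colon and 144 CPM in rectum, against 34.6, 12.3 and 25.1 CPM in duodenum, jejunum and ileum. Both large-intestinal libraries lay above the 3 small-intestinal ones, as they did for 9.08% of 4261 genes in this class. The gap of 2.52-fold did not reach 4-fold. Within ILC2-like cells Il4 was found in 11 of 16 colonic and 26 of 41 rectal cells, against 2 of 8, 1 of 6 and 2 of 6 in duodenum, jejunum and ileum. In T-like cells the shares were 6.77%, 3.85%, 13%, 3.53% and 6.41% from duodenum to rectum, with the ileum highest and its interval overlapping the others. Markers of mast cells and basophils, which also make interleukin-4, were at 0 for 6 of 8 in innate lymphoid-like cells and 7 of 8 in T-like cells, with summed levels of 1.54 to 12.3 CPM and 1.63 to 30.7 CPM over the 5 libraries.

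The Gm15340-led T-like part held 37 of the 49 T-like cells with Il4 and 24 of the 50 T-like cells with Ifng. Of its 164 cells, 71 were duodenal, 31 jejunal, 57 ileal, 5 colonic and 0 rectal, and 37.2% had a Cd4 UMI. Ifng was found in 14.6% of them and Il4 in 22.6%. Ifng was found in 5 of the 37 cells with Il4 (13.5%) and in 15% of those without it. Tbx21 was found in 14 of the 37 cells with Il4 (37.8%) and 18.1% of those without, and Gata3 in 10 (27.0%) and 30.7%.

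Ifng, the type 1 gene, was found in 42 innate lymphoid-like cells and 50 T-like cells. The shares in innate lymphoid-like cells were 3.70% in duodenum, 0% in jejunum, 22.2% in ileum, 7.81% in colon and 18.9% in rectum, and 0 of 37 jejunal cells allows up to 8.11%. The shares in T-like cells were 6.46%, 4.81%, 6.96%, 7.06% and 12.8%. Innate lymphoid-like cells were higher in ileum, colon and rectum and lower in duodenum and jejunum, and the intervals of the classes overlapped in each library. The Klra7-led natural killer and ILC1-like part had Ifng in 29 of 107 cells (27.1%) and the Ccl4-led part in 9 of 58 (15.5%), whereas the Gzmb-led cytotoxic T-like part had it in 8 of 223 (3.59%). Of the 42 innate lymphoid-like cells with Ifng, 21 had Tbx21 (50%) and 36 had Ncr1 (85.7%), against 18.0% and 52.9% of those without Ifng. Both are also markers of the natural killer and ILC1-like parts, which held most of the cells with Ifng. The contrast was not made within those parts.

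Il10 was found mainly in macrophage-like cells and in 0 of the 331 innate lymphoid-like cells, which allows a share of 2.46% in rectum and up to 8.11% in jejunum. Macrophage-like cells held 414 of its 616 UMIs. Their levels were 145 CPM in duodenum (18 of 99 cells), 45 CPM in jejunum (8 of 103), 69.2 CPM in ileum (13 of 84), 86.0 CPM in colon (29 of 111) and 95.2 CPM in rectum (28 of 106). Duodenum was highest and jejunum lowest in level, and the intervals of these libraries did not overlap (117 to 179 and 31.8 to 61.7 CPM). These intervals take each UMI as independent, whereas the UMIs sat in 18 and 8 cells, and 1 macrophage-like cell held 21. They are therefore too narrow, and a difference beyond counting error is not shown. In shares the colon (26.1%) and rectum (26.4%) were highest, with median depths of 8175 and 13043 UMIs in their macrophage-like cells against 5402 to 5922 in the small intestine. Of the 103 jejunal cells, 18 lay in a shallow cluster of 21 macrophage-like cells with a median of 722 UMIs. Plasma cell markers summed to 6335 to 32702 CPM in macrophage-like cells of the 5 libraries, and plasma-like cells themselves had Il10 at no more than 9.32 CPM. In thinned cells the share over all libraries was 5.35% in macrophage-like cells and 0.0538% in B-like cells.

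T-like cells held Il10 in 11 cells, 7 of them rectal, where the level was 39.1 CPM (21.4 to 65.6). In the other libraries it was 0.660, 6.03, 1.63 and 3.24 CPM from duodenum to colon. Of the 11 cells, 9 were in the regulatory T-like part, 40 of whose 75 cells were rectal, and 6 had a UMI of Foxp3, the regulator of these cells, against 2.87% of T-like cells without Il10. Dendritic-like cells held it in 4 of 34 ileal cells (32.4 CPM), in 2 of 186 duodenal cells and in 0 of the other 3 libraries. Plasma-like cells had an Il10 UMI in 62 of 509 cells, at a median depth of 26808 UMIs. After thinning, 3 of 503 plasma-like cells kept one.

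**Figure D4:**
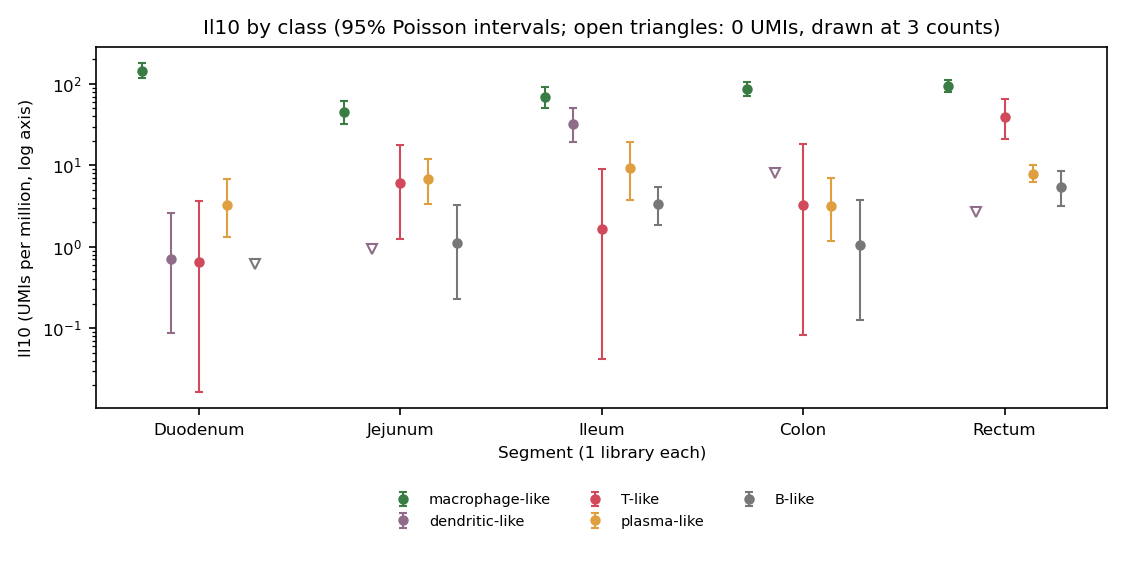
Level of Il10 in CPM (log axis) in macrophage-like, dendritic-like, T-like, plasma-like and B-like cells by segment, 1 library each, with exact 95% Poisson intervals; open triangles mark 0 UMIs, drawn at 3 counts. Macrophage-like cells lie between 45 and 145 CPM in every library, and T-like cells come nearest to them in rectum at 39.1 CPM.

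Csf2 was found in innate lymphoid-like cells of all 5 segments, in 8 of 54 duodenal, 8 of 37 jejunal, 8 of 54 ileal, 10 of 64 colonic and 24 of 122 rectal cells, shares of 14.8%, 21.6%, 14.8%, 15.6% and 19.7% whose intervals all overlapped. The levels were 197, 635, 264, 436 and 367 CPM. T-like cells had shares of 1.23%, 0.962%, 3.48%, 7.06% and 3.85%, lower in every library. Csf2 was found in 30 of 77 ILC2-like (39.0%), 16 of 89 ILC3-like (18.0%) and, in the natural killer and ILC1-like parts, 9 of 107 and 3 of 58 cells, and among T-like cells in 9 of the 58 cells of the Cd163l1-led part (15.5%). The colonic T-like level of 74.6 CPM came from 23 UMIs, 17 of them in 1 cell. Dendritic-like cells held Csf2 in 2 of 439, of which 1 colonic cell had 19 UMIs.

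Csf2 also had UMIs in small-intestinal epithelial-like cells, at a much lower level per UMI sequenced. It was found in 61 of 1079 duodenal (5.65%), 114 of 796 jejunal (14.3%), 5 of 1090 ileal (0.459%), 0 of 1125 colonic and 2 of 788 rectal epithelial-like cells. The levels were 1.88, 5.66, 0.351, 0 and 0.0899 CPM. The 3 small-intestinal libraries lay above both large-intestinal ones, as for 19.4% of 13897 genes in epithelial-like cells, and the gap of 2.60-fold, with 3 counts as the floor, did not reach the 4-fold that 2.66% of genes passed. The median depth was 38229 UMIs in duodenal, 33562 in jejunal and 29528 in colonic epithelial-like cells. Of the 182 epithelial-like cells with Csf2, 137 were in the cluster of 615 cells led by Apoc2, Cyp3a11 and Apoa4, genes of absorptive enterocytes that handle lipid, with 46 of 269 duodenal (17.1%) and 91 of 343 jejunal cells (26.5%). The cluster led by Olfm4, a gene of crypt-base cells, had it in 2 of 705 cells, at a median of 41031 UMIs. Deep plasma-like cells of the same libraries held Csf2 in 0 of 88 duodenal and 0 of 57 jejunal cells, at medians of 22491 and 25593 UMIs, and B-like cells in 0 of 1278 and 0 of 550. Most of these epithelial cells, 148 of 182, had 1 UMI, and after thinning to 1000 UMIs only 3 of 4651 kept one.

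**Figure D5:**
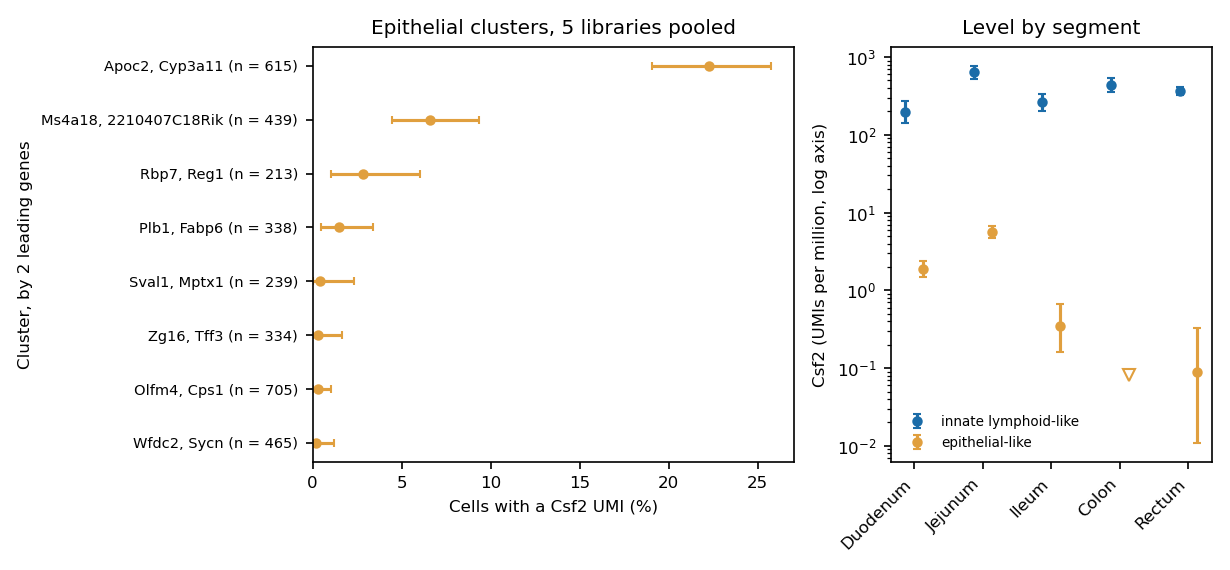
Left, percentage of cells with a Csf2 UMI in the epithelial-like clusters with any, 5 libraries pooled, named by leading genes, with exact 95% intervals. Right, level of Csf2 in CPM (log axis) in innate lymphoid-like (blue, left) and epithelial-like cells (orange, right) by segment, with exact Poisson intervals and an open triangle for 0 UMIs at 3 counts. The Apoc2-led cluster stands above the others, and innate lymphoid-like levels of 197 to 635 CPM lie far above the epithelial-like ones, the highest of which is 5.66 CPM.

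Between large and small intestine, 0 of the 9 genes passed the 4-fold rule in either lymphoid class. Over all genes the rule called 0.0% of 4261 higher and 0.0469% lower in innate lymphoid-like cells, and 0.118% of 6784 higher and 0.192% lower in T-like cells. In macrophage-like cells, where Il10 was the member tested, the rule called 0.0264% of 7575 genes higher and 0.198% lower, and not Il10. A 2-fold rule called Il4 in innate lymphoid-like cells, and 0.141% of genes. The members with at least 50 UMIs were 7 in innate lymphoid-like cells and 2, Il4 and Ifng, in T-like cells.

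Cells with several cytokines were mostly innate lymphoid-like. At least 2 of the 9 were found in 58 of 331 innate lymphoid-like cells, 33 of them rectal, and in 14 of 707 T-like cells. At least 3 were found in 26 innate lymphoid-like cells, 21 of them rectal, and in 0 T-like cells.

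Of the regulators, Gata3, Tbx21 and Foxp3 were also markers used to name lymphoid parts. Gata3 was at 331, 191, 121, 397 and 298 CPM in innate lymphoid-like cells from duodenum to rectum, and at 54.1, 78.4, 47.4, 120 and 271 CPM in T-like cells. Tbx21 ranged from 58.4 to 87.9 CPM in innate lymphoid-like cells and from 8.37 to 55.4 CPM in T-like cells. Of 15 regulators tested, 1, Foxp3, was at least 4-fold lower in innate lymphoid-like than in T-like cells, against 1.62% of 7878 genes. Foxp3 was at 0 to 4.36 CPM in innate lymphoid-like cells, at 67.0 CPM in rectal T-like cells and at 0 to 16.2 CPM in those of the other segments. Of 12 receptors for the cytokines that induce effector genes, 11 were tested and 2, Il17rb and Il1rl1, were at least 4-fold higher in innate lymphoid-like cells, against 1.23% of all genes, with a median ratio of 2.60 over the 11 against 1.02 over all genes. Both are also markers of the innate class, so this is a description. Il17rb averaged 76.1 CPM in innate lymphoid-like cells and 4.45 CPM in T-like cells. Of 15 other lymphocyte cytokines, 10 were tested and 2, the chemokine genes Ccl3 and Ccl4, were at least 4-fold higher in innate lymphoid-like cells, against the same 1.23% of all genes. Il9, a further type 2 cytokine, was at 16.9 CPM in rectal innate lymphoid-like cells and at 0 in the other 4 libraries. That level came from 11 UMIs, held by 0.604% of all innate lymphoid-like cells. Il21 and Il24 were at 0 in both classes.

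In epithelial-like cells Il22ra1 was at 1.13, 1.61, 2.46, 0.378 and 0.315 CPM from duodenum to rectum, Il17rc at 40.4 to 126 CPM and Il13ra1 at 26.8 to 57.7 CPM. The highest receptor means in these cells were those of Ifngr1 (137 CPM) and Ifngr2 (110 CPM). In macrophage-like cells Csf2ra and Csf2rb, the chains of the GM-CSF receptor, averaged 311 and 276 CPM. Il10ra averaged 112 CPM there, below Ifngr1 (252 CPM) and Il10rb (171 CPM). Of the 16 receptors, 10 were tested in epithelial-like and 11 in macrophage-like cells, and 0 passed the 4-fold rule between large and small intestine. Of the 14 inducing cytokines, Il1b averaged 1764 CPM in macrophage-like and 1141 CPM in dendritic-like cells, and Il33 averaged 300 CPM in endothelial-like and 111 CPM in stromal-like cells. Il23a, whose product induces Il22 and Il17a, reached no more than 1.44 CPM in macrophage-like and 7.83 CPM in dendritic-like cells.

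Of 20 epithelial genes known to respond to these cytokines, 17 had at least 50 UMIs in epithelial-like cells, and 4 were at least 4-fold higher in the large than in the small intestine, Fut2, Retnlb, Cxcl1 and Saa1, against 2.13% of all genes. None of the 17 was at least 4-fold lower. Retnlb, a goblet cell product induced by type 2 cytokines, was at 6120 CPM in colon and 1192 CPM in rectum, against 79.0, 82.4 and 286 CPM in duodenum, jejunum and ileum. Reg3b and Reg3g, antimicrobial lectins induced by interleukin-22, were highest in ileum, at 1100 and 1078 CPM, and were at 0 and 1.08 CPM in rectum. Innate lymphoid-like Il22 was at 844, 278, 33.5, 26.2 and 192 CPM from duodenum to rectum, and its relation to these lectins was not tested.

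Genes with a pattern like that of a member were named over 42 class-by-library sums of at least 20 cells, as Pearson r of log2(CPM + 5), among 7602 genes other than the 9 members. Candidates had at least 50 UMIs in T-like and innate lymphoid-like cells together, also for Il10, found mainly in macrophage-like cells. Unnamed gene models, mitochondrial, T cell receptor and immunoglobulin genes were left out. Il17rb, Klrb1f, Ncr1, Arg1, Gata3, Cd4 and Apoe were also markers used to name classes or parts. The sums share libraries and depth, and those of 1 class share a cell type, and r is given as a description. For Il13 the 3 highest were Il17rb (0.94), Klrb1f (0.93) and Ncr1 (0.91). For Csf2 they were Il17rb (0.97), Klrb1f (0.96) and Arg1 (0.95), and for Il22 Il17rb (0.93), Arg1 (0.93) and Ttn (0.92). For Il5 they were Ccdc184 (0.93), Il17rb (0.89) and Klrb1f (0.87), for Il4 Samd3 (0.96), Ccr4 (0.96) and Gata3 (0.93), and for Ifng Skap1 (0.89), Ms4a4b (0.89) and Ccr4 (0.89). Among these genes Il17a was nearest to Stab2 (0.70), and Il10 was nearest to Hpgds (0.78), Cd4 (0.77) and Apoe (0.76). Between members, r was 0.90 for Il13 and Il5, 0.89 for Il17a and Il17f, 0.89 for Il4 and Ifng and 0.91 for Csf2 and Il22, although Il22 and most Csf2 UMIs lay in different innate lymphoid-like parts.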

How the data were processed

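Single-cell RNA libraries of 5 mouse intestinal segments were used, 1 each, made on the 10x Genomics platform per the labels. The deposited matrices hold UMI counts, whole numbers without normalization, per gene and barcode. Cell Ranger 4.0.0, Seurat and mm10 are named in the submitters' processing notes, whereas the matrices name cellranger 7.2.0, per the file headers. Whether the counting used strand is not given in the sources used here.

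Barcodes with under 300 genes or over 20% mitochondrial UMIs were left out, which kept 12255 of 16535. Scrublet in scanpy 1.11.5 scored doublets in each library. Its own threshold marked 27, so the 333 highest scores were removed instead, at a rate of 0.8% for every 1000 barcodes. Leiden clustering (resolution 1.0, igraph 0.11.9) used 2000 variable genes without the 9 cytokines, 30 components and no batch correction. T and innate lymphoid clusters were pooled and divided again. A name needed 3 markers raised at least 1.5-fold and found in at least 10% of cells, and a part was T-like where at least 50% of cells had a Cd3d, Cd3e or Cd3g UMI. These thresholds were set with the data in hand. The cytokines, gene lists and rules were chosen with earlier results of these data known.

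Levels are CPM of the UMI sums of a class in a library, with exact Poisson intervals. These take each UMI as independent and are too narrow where many UMIs sit in few cells. Shares have Clopper-Pearson intervals. A count of 0 was given a limit of 3 counts. The rule of size was 4-fold with at least 50 UMIs, and was checked on simulated data with planted changes. The simulation drew independent counts, so it does not cover genes whose UMIs sit in few cells, as those of the cytokines do. Genes named are the 9 members, Gata3, Tbx21 and Foxp3, some genes of each list, and the 3 most like each member. The receptor, inducing cytokine and epithelial response genes named were not all the extremes of their lists by CPM. List genes past the rule, cluster leaders and marker genes set beside Il17a, Il22 and Ifng were added after their values were seen. The large intestine is colon and rectum. The spatial libraries of the study were not analysed here, and 1 regulator is not reported here. Intervals and limits cover counting error only. Alternatives are given in the closing section, with TMM factors from edgeR 4.0.16 as one of them.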

Additional observations from a re-analysis of the deposited data

How the results depend on the processing

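Under the 10 other choices of barcode filter, doublet removal, clustering and class, the share of innate lymphoid-like cells with any of the 9 cytokines stayed within 40.3 to 46.2%, and that of T-like cells within 17.5 to 19.2%, except that classing single cells by their own marker UMIs gave 22.7% for T-like cells. Counting only cells with at least 2 UMIs of a cytokine gave 26.6% for innate lymphoid-like and 6.51% for T-like cells, and thinning to 1000 UMIs gave 23.2% and 7.26%. Of 36 pairs of class and cytokine, 14 had a share whose interval lay above that of B-like cells, and 12 to 16 did under the alternatives; classing by marker UMIs forms no B-like cells and gives no such count. With the marker-UMI classes, Il17a was found in 4 of 191 innate lymphoid-like cells (2.09%). The number of members at least 4-fold higher in innate lymphoid-like than in T-like cells was 5, and it was 2 without the rectum library, and 4, without Il17f, when the cell with most UMIs of each cytokine was left out, both chosen after seeing the data; it was 5 with each T-like library at 0 UMIs set to 3 counts, also added after seeing the data. With 2-fold in place of 4-fold, Il4 in innate lymphoid-like cells was the 1 call between large and small intestine, where the same rule called 0.141% of genes. Innate lymphoid-like cells with at least 2 cytokines numbered 58, with 22 after thinning and 33 in the rectum alone, a count added after seeing the data. No paired analysis was possible because, between segments, each has 1 library and no replicate number. Both lymphoid classes come from the same 5 libraries and were set side by side within each, with no test, since the classes come from clusters: the innate lymphoid-like share lay above the T-like share in 5 of 5 libraries for Il22, Il13, Il5 and Csf2, in 3 for Il17a, Il4 and Ifng, in 2 for Il17f and in 0 for Il10. In level, Il22 was higher in innate lymphoid-like cells in 4 of 5 libraries. The colon was reversed, at 26.2 CPM in innate lymphoid-like and 71.3 CPM in T-like cells. Depth limits every gene found in few cells, and the share given beside a count of 0 limits cells with a UMI, not cells that express the gene.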
